A study of Mus musculus with 36 samples.

Results

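The replication-dependent histone genes of mouse chromosome 13 form the Hist1 cluster, and chromatin accessibility was measured across its 2 blocks by ATAC-seq, which reads out where DNA is open enough for a transposase to cut it. Every region of the deposited count table that overlaps either block was included, with no cut on its level, which gave 585 of 1393120 regions. The 307 regions of the first block ran from 21780107 to 22150113 and the 278 of the second from 23580173 to 23900501 on chromosome 13 of the mm9 build. The blocks themselves were chosen by their levels in the fibroblasts and GMT groups described next, so every change over time below is a description, with fitted log2 fold changes and standard errors (SE) but no p-values. Levels are CPM, counts brought to a common library size with trimmed-mean scaling (TMM), and positions are printed as the table gives them.

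The cells came from explant cultures of hearts of neonatal Cd-1 mice that carry an alpha-MHC-GFP transgene, a green reporter driven by a cardiac myosin promoter. Cells positive for Thy1 and negative for GFP, which the labels call largely fibroblasts, were infected with retroviruses. The fibroblast group received dsRed, a red fluorescent protein, and no inhibitor, and was sorted for dsRed at day 7. The 5 GMT groups received the cardiac transcription factors Gata4, Mef2c and Tbx5 together with sb431542 and xav939, which inhibit TGF-beta and Wnt signalling. GFP-positive cells of these groups were sorted at days 2, 3, 7, 14 and 21. Each group had 3 biological replicates. In every comparison with fibroblasts the effects of the factors, of the inhibitors, of the sorting marker and, for all days but day 7, of time in culture cannot be told apart. Because whole sorted populations were measured, a lower level in every cell cannot be told apart from fewer cells with the region open.

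Replication-dependent histone genes code for the core histones H2A, H2B, H3 and H4 and the linker histone H1. They are transcribed mainly while DNA is copied, their mRNAs end in a stem-loop in place of a poly(A) tail, and these mRNAs become scarce in cells that leave the cell cycle. The factor NPAT gathers at the Hist1 genes in a nuclear compartment known as the histone locus body and drives their transcription. Neonatal heart fibroblasts divide in culture, whereas maturing cardiomyocytes largely stop dividing. Accessibility does not measure transcription, and no RNA was analysed here.

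RefSeq's annotation of a later build, GRCm38.p6, shows what such a cluster contains. It lists 54 histone genes from H2bc13 to H1f1, 52 of them protein coding, with 6 H1, 14 H2A, 14 H2B, 9 H3 and 11 H4 genes. They fall into a first group of 24 and a second group of 30, with 147 other genes between the groups, among them 75 Vmn1r genes and pseudogenes (vomeronasal receptors) and 46 tRNA genes. The first group is itself interrupted by 39 genes, of which 31 are tRNA genes and 3 are the protein-coding genes Zfp184, Pom121l2 and Prss16. No annotation of mm9 was used here, so no region below is assigned to a gene, and the promoter of a histone gene cannot be set beside the level of a region.

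Promoter sequences from RefSeq (GRCm38.p6) were matched by symbol for 49 of the 54 genes, in 50 windows. The 250 bases before each start were searched on both strands for TATAA (the core of a TATA box), CCAAT (the CCAAT box), AAACACA (the AC box described for H1 genes) and ATTTGCAT (the octamer described for H2B genes). TATAA occurred in 64% of the histone windows and in 22.8% of all 32851 RefSeq windows of the same length, and CCAAT in 84% against 33.8%. All 7 H3 windows, all 12 H2A windows, all 14 H2B windows and all 6 H1 windows held CCAAT, but only 3 of 11 H4 windows. AAACACA occurred in 5 of 6 H1 windows against 6.25% of all windows. ATTTGCAT occurred in 5 of 14 H2B and 4 of 12 H2A windows against 1.6% of all. Many H2A and H2B genes lie head to head, so the same bases can stand in a pair of windows. These are letter matches and not shown to be bound. The 150 bases before the start of 4 genes are printed 5′ to 3′ on the strand of the gene, with the searched motifs on either strand in capitals, to show an H1 pair with the AC box, an H3 gene and an H2B gene with the octamer. H1f3 and H1f4 code for H1 variants, H3c2 for an H3 and H2bc12 for an H2B.
H1f3: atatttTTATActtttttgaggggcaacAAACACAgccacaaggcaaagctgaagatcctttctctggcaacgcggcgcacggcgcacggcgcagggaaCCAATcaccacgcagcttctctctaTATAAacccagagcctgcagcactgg
H1f4: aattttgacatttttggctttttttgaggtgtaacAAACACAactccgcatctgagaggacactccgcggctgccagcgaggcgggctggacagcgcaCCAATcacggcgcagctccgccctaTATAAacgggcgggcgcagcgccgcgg
H3c2: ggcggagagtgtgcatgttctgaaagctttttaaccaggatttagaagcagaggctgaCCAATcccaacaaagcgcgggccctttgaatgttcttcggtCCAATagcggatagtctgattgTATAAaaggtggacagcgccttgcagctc
H2bc12: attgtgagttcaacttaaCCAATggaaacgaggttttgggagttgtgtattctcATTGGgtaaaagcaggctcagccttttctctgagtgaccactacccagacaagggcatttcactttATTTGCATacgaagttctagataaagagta

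The order of the matches was alike in the H1 genes printed, while H1f1 had no AAACACA and H1f2 no TATAA in its 250 bases. In H1f3, AAACACA began 122 bases, CCAAT 51 bases and the nearer TATAA 26 bases before the start, and in H1f4 the distances were 115, 52 and 27 bases. H3c2 held CCAAT at 92 and 51 bases and TATAA at 29 bases. H2bc12 held ATTTGCAT at 30 bases, and no TATAA in the 150 bases printed.

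The table as used here covers chromosomes 1, 10 to 16 and part of 17, so totals, CPM and all shares of regions refer to these chromosomes and not to the whole genome. Library totals over it ran from 2293128 to 23217308 counts, and between 4.52 and 49.4% of them fell in the same region of chromosome 1. This share was 49.4, 49.3 and 14.5% in fibroblast replicates 1, 2 and 3, and 4.52 to 35.4% in the GMT libraries. The TMM factors were 0.63, 0.64 and 1.19 in the same fibroblast libraries and 0.83 to 1.36 in the GMT libraries. With library totals alone in place of TMM, the median region of the whole table stood 0.63 higher at day 2 than in fibroblasts on the log2 scale, so every direction against fibroblasts below is relative to the TMM scaling. Replicate 1 at day 2, replicate 1 at day 3 and replicate 3 at day 14 stood apart from the other libraries on principal components of all tested regions, and counts of calls and block sums without them are given below. Fibroblast replicate 3, a control in all 5 comparisons with fibroblasts, also differed from fibroblast replicates 1 and 2. It stood at 105 on the third component against -58.3 and -65.5, and its total was 2340360 counts against 17334973 and 6772384. Counts of the 585 regions made up 0.118 to 0.268% of these totals. Markers of other cell types were not placed, since no mm9 annotation was used.

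Of the 585 regions, 146 passed the filter on low counts (76 in the first block and 70 in the second), and 439 did not. The 146 held 95.9% of the counts of both blocks. They had a median width of 1223 bases against 1490 for all 144810 tested regions of the table, and a median level of 4.38 against 1.47 CPM. At least 10 CPM on average was found in 49 of them, 27 in the first block and 22 in the second. This was 33.6% of the tested histone-block regions and 7.18% of all tested regions. The regions at the block edges were low and not tested, with 0.216 CPM just inside and 0.191 CPM just outside the left edge of the first block. At its right edge the values were 0.176 CPM inside and 0.365 CPM outside. The exception was the region just inside the left edge of the second block, with 9.34 CPM, whose neighbour outside had 0.227 CPM. At the right edge of that block they were 0.315 CPM inside and 0.0602 CPM outside.

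The summed accessibility of each block stayed in a narrow range, with the first block lower and the second higher at day 21 than in fibroblasts. The first block summed to 1060.3, 1055 and 1132 CPM in the 3 fibroblast libraries, to 1035, 967 and 1022 at day 2, and to 969, 930.3 and 934 at day 21. All day 21 libraries thus lay below all fibroblast libraries, as did those of day 2. Group means were 1082 ± 43.0 CPM (SD, n = 3) in fibroblasts, 1008 ± 35.8 at day 2, 938 ± 60.8 at day 3, 1006 ± 47.9 at day 7, 919 ± 100.0 at day 14 and 944 ± 21.4 at day 21. The log2 ratio of day 21 to fibroblasts was -0.20, and turned to 0.27 with library totals alone.

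The second block summed to 807, 802 and 882 CPM in fibroblasts, to 931, 878 and 814 at day 2, and to 968, 970.5 and 989.8 at day 21. Here all day 21 libraries lay above all fibroblast libraries, while day 2 overlapped with fibroblasts. Group means were 830.4 ± 45.1 in fibroblasts, 874 ± 58.7 at day 2, 838 ± 30.5 at day 3, 962 ± 84.7 at day 7, 900.1 ± 175 at day 14 and 976 ± 11.9 at day 21 (SD, n = 3). The log2 ratio of day 21 to fibroblasts was 0.23, and 0.69 with library totals alone. The wide spread at day 14 came from replicate 3, whose sums were 805 CPM in the first block and 699 CPM in the second. Without it the day 14 means of the other 2 libraries were 976 CPM and 1000.4 CPM.

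The 2 blocks together held 1913 ± 88.1 CPM in fibroblasts and 1921 ± 18.4 CPM at day 21 (SD, n = 3). The mean of days 14 and 21 stood at a log2 ratio of -0.06 to that of days 2 and 3 in the first block and of 0.13 in the second. The SD between single libraries of a group, pooled over the groups, was 0.0885 and 0.144 on the same scale, each larger than the size of the ratio of its block. The ratios compare means of several libraries, which vary less than single ones, so this SD does not say whether they exceed their noise. Both signs held with any single library of these days left out, but the sizes moved. With replicate 3 of day 14 left out the ratio was 0.21 in the second block and -0.02 in the first. With replicate 1 of day 14 left out it was 0.08 and -0.09. Leaving out the 3 libraries that stood apart gave 0.21 and -0.04. The 1995 regions between the blocks, 134 of them tested, summed to 1155 ± 78.3 CPM in fibroblasts, 893 ± 88.2 at day 2 and 779 ± 65.9 at day 21.

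**Figure D1:**
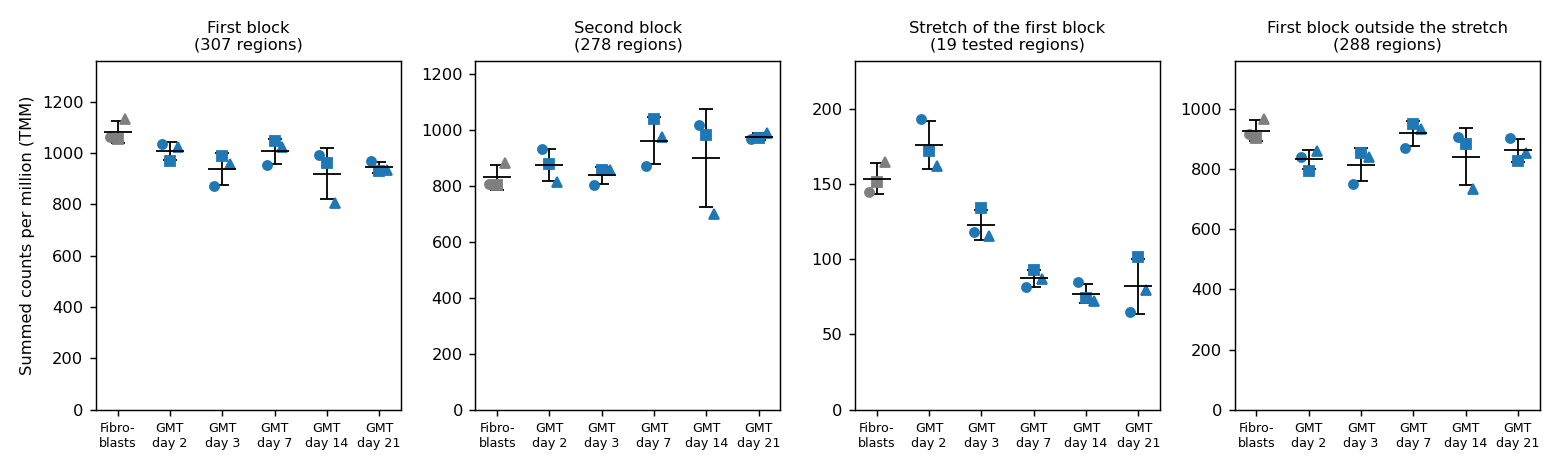
Summed TMM-scaled CPM (vertical axes, from 0) in the 6 groups for the first block, the second block, a stretch of the first block described below and the first block without it. Circles, squares and triangles are replicates 1, 2 and 3, bars are the mean and SD (n = 3), fibroblasts are grey and GMT cells blue. The block sums stay near their fibroblast level, while the stretch goes from 153 CPM in fibroblasts to 81.9 CPM at day 21. The stretch was drawn around regions picked as lower at day 21 than at day 2, so its fall follows in part from that choice.

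The most accessible regions of both blocks stayed open throughout. By the rule for named regions these were the 6 with the highest mean CPM in each block, and their widths ran from 1338 to 4228 bases. Per kilobase their levels ran from 15.8 to 35.8 CPM, so the order by CPM is partly an order by width. A region is called here where edgeR's quasi-likelihood test gave a Benjamini-Hochberg adjusted p under 0.05 over all tested regions of the table. Of the 12, 0 were called by edgeR in any of 7 comparisons, while 3 had an unadjusted edgeR p under 0.05 in at least 1 of them and 3 were called by DESeq2 in at least 1. Over all tested regions of at least 10 CPM, edgeR's calls per comparison ran from 1.64% (day 21 over day 2) to 37.8% (day 7 over fibroblasts). Their share called in any of the 7 was not computed, and nothing is read from the counts of the 12. At day 21 their fitted log2 fold changes against fibroblasts ran from -0.63 to 0.60 (SE 0.30 to 0.32). These standard errors and the calls draw on the spread over all tested regions, not only on that of the region itself.

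The region with the highest level, chr13:21922974-21927202 in the first block, had 78.0, 79.1 and 78.2 CPM in fibroblasts and 74.6, 73.4 and 77.2 CPM at day 2. It had 73.1, 77.2 and 77.3 CPM at day 3 and 88.8, 100.5 and 99.1 CPM at day 7. At day 14 it had 97.3, 98.8 and 76.5 CPM, and at day 21 100.1, 93.9 and 88.5 CPM. All libraries of days 7 and 21 lay above all fibroblast libraries, and those of day 2 lay below. The fitted change was -0.06 at day 2 (SE 0.31) and 0.26 at day 21 (SE 0.31), less than its standard error. That standard error does not measure the spread of this region alone, whose log2 CPM had an SD of 0.175 over all 18 libraries. The next in the first block, chr13:21900642-21904630, had means of 74.9 ± 8.15 CPM in fibroblasts, 64.9 ± 6.38 at day 2 and 88.4 ± 10.2 at day 21 (SD, n = 3).

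In the second block the highest region was chr13:23830054-23833030. It had 55.8, 52.5 and 44.7 CPM in fibroblasts, 50.9, 52.6 and 46.0 CPM at day 2 and 71.3, 86.9 and 75.2 CPM at day 21. Day 21 did not overlap with fibroblasts or day 2, and the fitted change against fibroblasts was 0.60 (SE 0.32). At day 14 its libraries spread from 48.5 to 92.8 CPM, with replicate 3 the lowest. Replicate 3 was the lowest day 14 library in all 12 regions.

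The region that varied most among the 12, chr13:23712117-23715060, was lowest early. It had 58.0, 57.1 and 60.9 CPM in fibroblasts, 36.8, 46.7 and 43.0 CPM at day 2, 41.9, 44.0 and 48.9 CPM at day 3 and 61.9, 72.8 and 68.1 CPM at day 21. Days 2 and 3 lay below fibroblasts and day 21 above, with no overlap, and the fitted change from day 2 to day 21 was 0.68 (SE 0.32). The region that varied least, chr13:22126654-22128380, had means between 44.7 and 58.6 CPM in all groups. Of the 12, 1 was below all fibroblast libraries at every time, chr13:22141580-22143708, with 71.5, 69.4 and 71.3 CPM in fibroblasts and 41.4, 45.4 and 50.1 CPM at day 21 (log2 fold change -0.63, SE 0.31). Of the 12, 11 had a positive fitted change from day 2 to day 21, as did 7645 of all 10396 tested regions of at least 10 CPM (median 0.28).

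**Figure D2:**
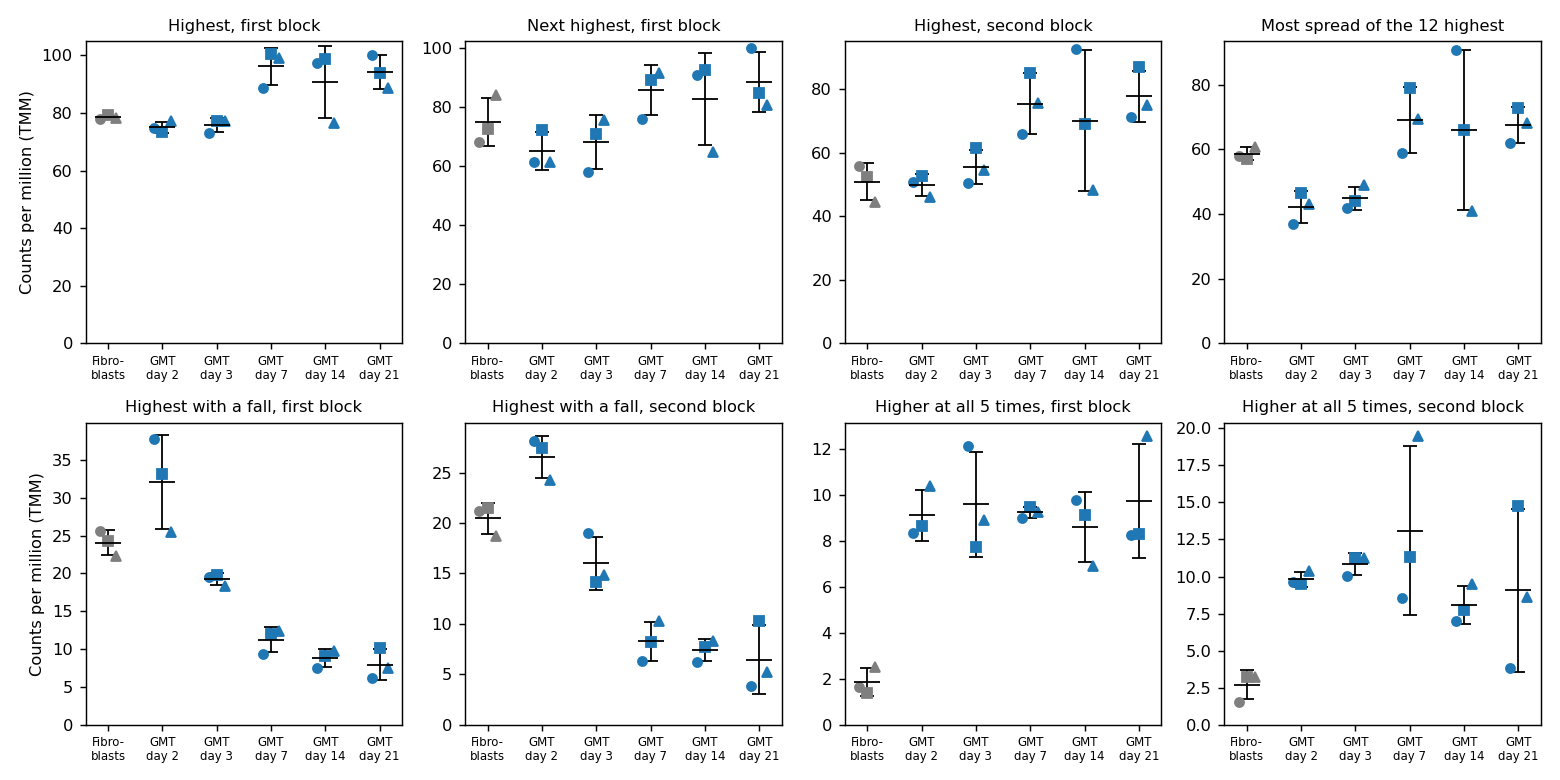
TMM-scaled CPM (vertical axes, from 0) of 8 single regions in the 6 groups, with replicates 1, 2 and 3 as circles, squares and triangles and the mean and SD (n = 3) as bars. The upper row holds regions of high level, which stay open at all times. The lower row holds 2 regions that are lower at day 21 than at day 2, with a fall already at day 3, and 2 that are higher than fibroblasts at all 5 times.

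The 49 histone-block regions of at least 10 CPM had a median log2 fold change against fibroblasts of -0.04 at day 2, -0.11 at day 3, 0.12 at day 7, -0.03 at day 14 and 0.05 at day 21. Over all 10396 tested regions of at least 10 CPM in the table the medians were 0.07, 0.12, 0.58, 0.25 and 0.40. Of the 49, 1 was called at day 2, 0 at day 3, 4 at day 7, 4 at day 14 and 5 at day 21, each time lower. The calls over all regions of this level, in either direction, were 26.9% at day 2, 27.6% at day 3, 37.8% at day 7, 28.4% at day 14 and 30.3% at day 21. Lower calls alone were 4.68, 4.08, 3.42, 5.63 and 4.42% of these regions, beside 2.04, 0, 8.16, 8.16 and 10.2% of the 49. At day 3, where edgeR called 0 of the 49, 5 were lower at an unadjusted edgeR p under 0.05 and DESeq2 called 6 lower. Nothing is read from these shares, since the blocks were chosen with such values known. The 1 region called at day 2 was chr13:21825138-21827983, with 27.3, 25.4 and 23.1 CPM in fibroblasts, 17.3, 11.9 and 13.04 CPM at day 2 and 23.5, 18.8 and 22.3 CPM at day 21. It was thus lower at day 2 (log2 fold change -0.87, SE 0.29) and overlapped with fibroblasts again at day 21 (-0.23, SE 0.28).

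**Figure D3:**
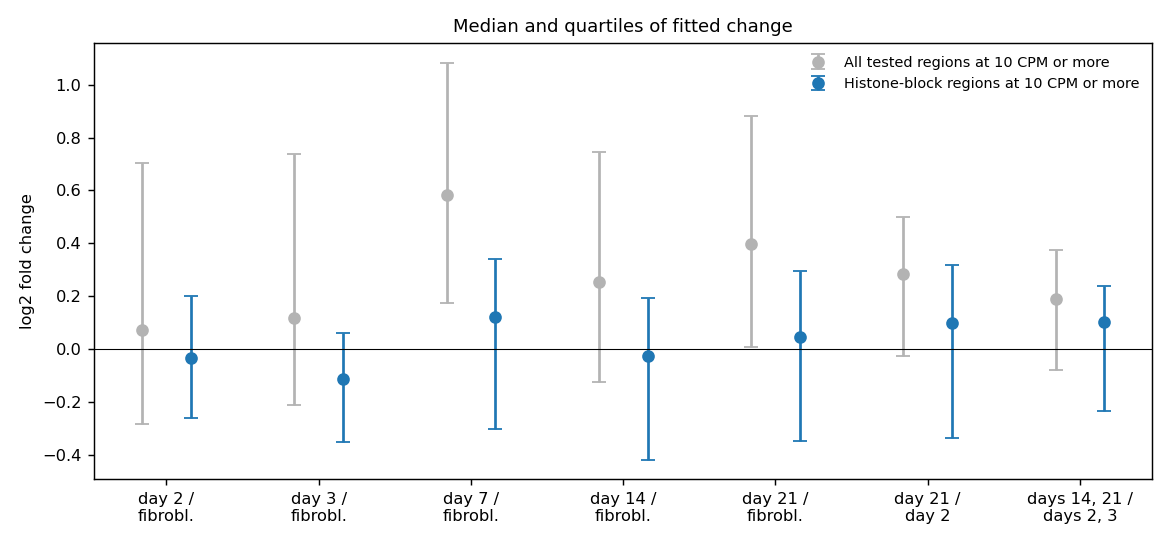
Median (points) and quartiles (bars) of the fitted log2 fold change (vertical axis) in 7 comparisons, for all 10396 tested regions of at least 10 CPM (grey) and the 49 of the histone blocks (blue). The 5 comparisons with fibroblasts share the same 3 control libraries. The histone-block medians lie between -0.11 and 0.12, and those of all regions of this level between 0.07 and 0.58.

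Across all 146 tested regions, calls at an adjusted p under 0.05 numbered 15 at day 2 (13 higher and 2 lower), or 10.3%, against a background of 20.3% of all tested regions of the table. They numbered 17 at day 3 (12 higher, 5 lower; background 22%), 27 at day 7 (8 higher, 19 lower; background 27.5%), 31 at day 14 (11 higher, 20 lower; background 22.5%) and 28 at day 21 (9 higher, 19 lower; background 23.4%). The median fitted change was 0.08 at day 2 and 0.08 at day 21, beside -0.0027 and 0.05 over all tested regions. Over all tested regions the lower calls were 8.09% at day 2, 8.84% at day 3, 12% at day 7, 9.7% at day 14 and 10.1% at day 21, and the higher calls 12.2, 13.2, 15.5, 12.8 and 13.3%. The groups did not overlap, in either direction, in 36.3% of the 146 regions at day 2 (background 34%), 39% at day 3 (35.4%), 44.5% at day 7 (43%), 36.3% at day 14 (35%) and 41.1% at day 21 (39.3%). Every time point is compared with the same fibroblast libraries, and nothing is read from these shares. Of the 146, 100 were called at no time, 21 were higher at 1 or more times and 25 were lower at 1 or more times, with 0 in both lists. These were 68.5, 14.4 and 17.1% of the 146, beside 61.7, 21.1 and 17.1% of all tested regions, of which 0.00552% were in both lists. No called region of the blocks changed its sign with library totals alone or with RLE size factors, but the split of the calls moved with library totals alone, to 30 higher and 0 lower at day 2, 23 and 0 at day 3, 10 and 8 at day 7, 17 and 8 at day 14 and 23 and 8 at day 21. The split over all tested regions moved too, to 33420 higher and 2804 lower at day 2 and 36847 and 4639 at day 21. With a minimum count of 30, which leaves out the weaker regions, the split turned to 4 higher and 15 lower at day 2 and 3 higher and 25 lower at day 3, and was 3 and 34 at day 7, 4 and 29 at day 14 and 3 and 32 at day 21, of 99 regions. Over all regions kept by that filter the calls rose too, to 38, 40.5, 44, 40.2 and 40.3% at these days. They were 10418 higher and 8735 lower at day 2, and 10485 and 9839 at day 21. DESeq2 gave 10 higher and 11 lower at day 3, with 18.4% of all tested regions called. Without the 3 libraries that stood apart the split was 11 and 3 at day 2, 13 and 8 at day 3, 21 and 22 at day 7, 21 and 20 at day 14 and 17 and 24 at day 21. The background was then 21.8, 25, 33.2, 26.4 and 28.9% of all tested regions. The count at day 2 was 8 without fibroblast replicate 1 and 8 without fibroblast replicate 2, that at day 3 was 9 without fibroblast replicate 1, and that at day 7 was 16 without fibroblast replicate 1 and 15 without day 7 replicate 3. In the same order, the background fell to 12.9, 16.1, 14.2, 17.8 and 21.9%.

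The regions called higher were of low level. The 13 at day 2, 7 in the first block and 6 in the second, had mean levels of 0.75 to 8.93 CPM, and 9 of them had under 1 CPM in fibroblasts. A region that passes the filter only through the group where it is high had to differ, so nothing is read from this count. The 21 regions higher at any time had at most 8.93 CPM on average.

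Of the named rises at day 2, chr13:21943666-21944946 had 1.64, 1.39 and 2.52 CPM in fibroblasts and 8.32, 8.62 and 10.4 CPM at day 2. It then stayed level, with 8.98, 9.48 and 9.25 CPM at day 7 and 8.25, 8.31 and 12.6 CPM at day 21. Every GMT library lay above every fibroblast library, and the log2 fold changes were 2.38 (SE 0.35) at day 2 and 2.49 (SE 0.34) at day 21. In chr13:21862989-21864297 the fibroblast libraries had 2.74, 0.694 and 1.80 CPM, those of day 2 had 8.96, 8.70 and 8.76 CPM and those of day 21 had 7.47, 4.92 and 4.08 CPM. It was higher than fibroblasts at every time, and the day 21 libraries lay below the day 2 libraries. In chr13:21995804-21996865 the means were only 0.215 ± 0.233 CPM in fibroblasts, 1.15 ± 0.242 at day 2 and 0.705 ± 0.0833 at day 21 (SD, n = 3).

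In the second block chr13:23868824-23870718 had 1.55, 3.24 and 3.24 CPM in fibroblasts, 9.60, 9.47 and 10.4 CPM at day 2 and 3.79, 14.8 and 8.64 CPM at day 21. All libraries of both days lay above fibroblasts, and those of day 21 spread widely. Its log2 fold change was 2.02 (SE 0.39) at day 2 and 1.88 (SE 0.38) at day 21. The largest rise at day 21 was chr13:23621360-23621702, which had 0.274, 0 and 0 CPM in fibroblasts and 0.334, 0.769 and 1.54 CPM at day 21 (2.53, SE 0.87).

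Being higher at all 5 times was found for 4 regions (2.74% of the 146, beside 7.12% of all tested regions), the 3 with values above at 21943666, 21862989 and 23868824 and a further one at chr13:21831442-21833384. The latter had 2.19, 2.31 and 1.80 CPM in fibroblasts and 10.6, 3.23 and 3.06 CPM at day 2, so its day 2 mean of 5.62 CPM rests on replicate 1, a library that stood apart. Being lower at all 5 times was found for 1 region (0.685%, beside 4.55%), chr13:21910995-21914983. It had 11.4, 12.7 and 18.02 CPM in fibroblasts, 3.20, 7.62 and 4.28 CPM at day 2 and 9.03, 5.69 and 3.55 CPM at day 21, with no overlap. The other named falls at day 2 were not called, chr13:21905437-21905711 (-1.29, SE 0.57) and chr13:21922109-21922309 (-1.16, SE 0.58).

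**Figure D4:**
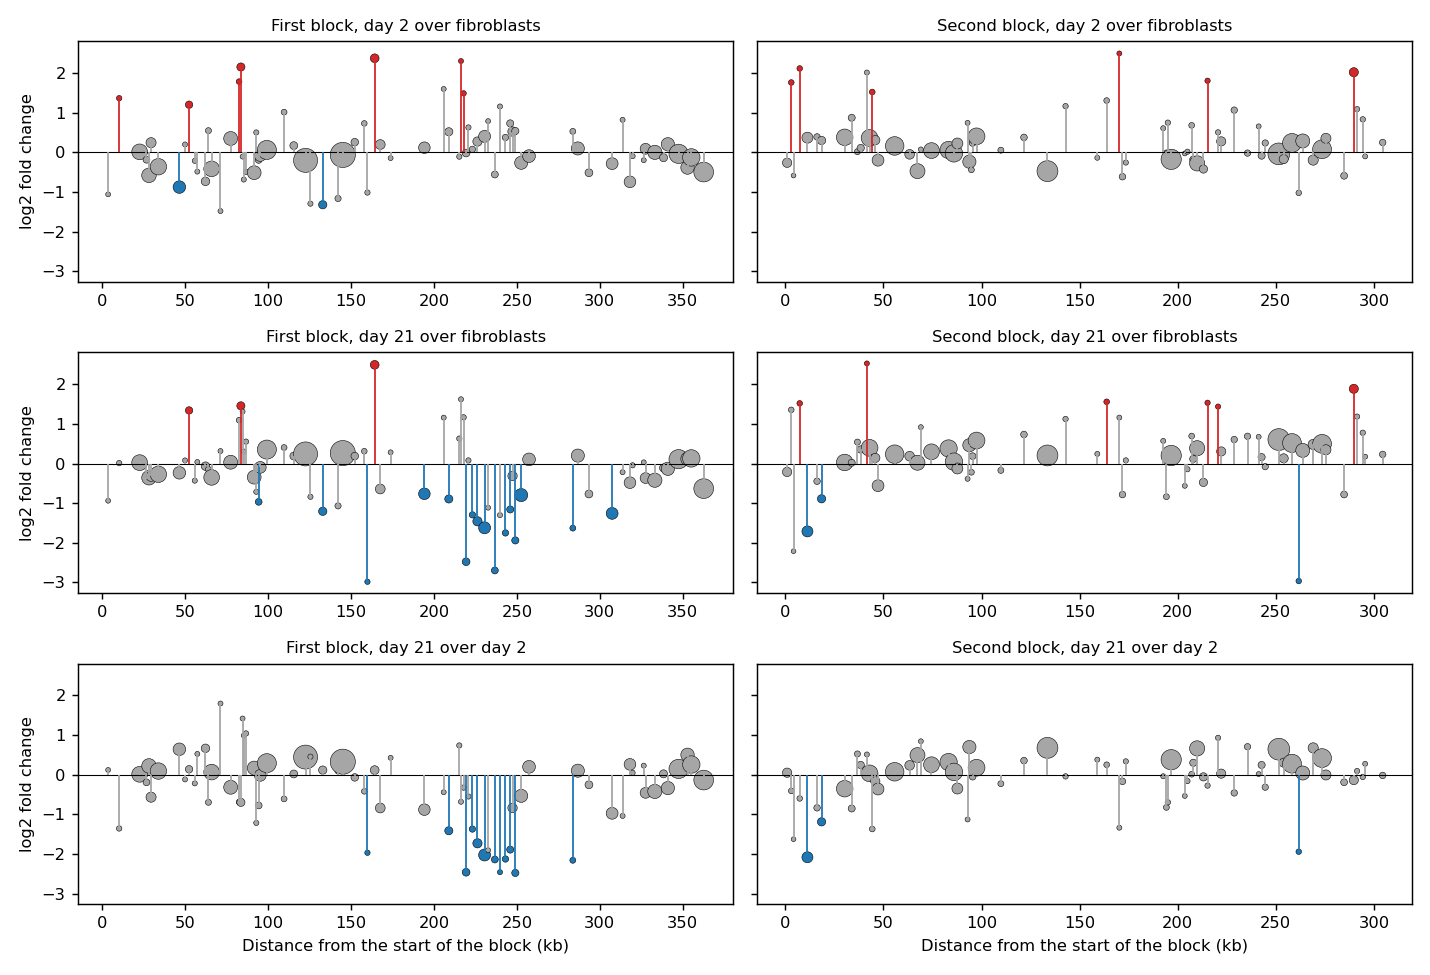
Fitted log2 fold change (vertical axes) of the 146 tested regions against distance from the start of each block in kilobases, for day 2 over fibroblasts, day 21 over fibroblasts and day 21 over day 2. Circle area grows with mean CPM, red marks regions called higher, blue those called lower and grey the others, and the upper rows share the fibroblast libraries. Large circles lie near 0, red circles are small, and in the first block the blue ones of the lowest panel gather between about 200 and 290 kb.

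From day 2 to day 21, 15 regions were called, 0 higher and 15 lower (for higher, 10 at an unadjusted edgeR p under 0.05 and 0 by DESeq2), 10.3% of those tested, beside a background of 1.44% in either direction, 0.572% higher and 0.871% lower. The libraries of the 2 days did not overlap in 34.9% of the 146, with a background of 19%. The median over all 146 was -0.03, against 0.02 over all tested regions. Of the 15, 12 lay in the first block and 3 in the second, their mean levels ran from 0.941 to 17.2 CPM, and their log2 fold changes from -1.19 to -2.48. Of the 15, 14 were also lower at day 21 than in fibroblasts, 0 were called at day 2 by edgeR (4 at an unadjusted p under 0.05 and 0 by DESeq2) and 11 had a day 2 mean above that of fibroblasts. In all 15 the day 3 mean was below that of day 2 and the day 7 mean below that of day 3. The 15 were picked as lower at day 21 than at day 2, so a high day 2 and a low day 21 follow in part from that choice. The comparisons with fibroblasts share these libraries, and nothing is read from the order of the means. The number of regions called from day 2 to day 21 was 9 without day 21 replicate 1 (background 0.485%), and 23 (18 lower and 5 higher) without the 3 libraries that stood apart (background 2.83%).

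Of the 12 in the first block, 11 formed a run in which neighbours were at most 40000 bases apart, from 21988046 to 22064063, a length of 76017 bases. The run was chosen after the values were seen, and gets no test. It held 19 tested regions, and the other 8 were not called between days 2 and 21. Against fibroblasts, 0 of the 19 were lower at day 2 (0 also at an unadjusted edgeR p under 0.05 and by DESeq2), 2 at day 3, 9 at day 7, 11 at day 14 and 11 at day 21. Over all tested regions the lower calls at days 2, 3, 7, 14 and 21 were 8.09, 8.84, 12, 9.7 and 10.1%. Among the 134 tested regions between the blocks they were 14.2, 14.2, 22.4, 15.7 and 20.1%. Of the 19, 2 were called higher than fibroblasts at day 2 (4 at an unadjusted edgeR p under 0.05) and 1 at day 3. Higher calls over all tested regions were 12.2% at day 2 and 13.2% at day 3. The summed level of the run was 153 ± 10.4 CPM in fibroblasts, 176 ± 15.97 at day 2, 122 ± 9.89 at day 3, 87.3 ± 5.58 at day 7, 77.2 ± 6.48 at day 14 and 81.9 ± 18.4 at day 21 (SD, n = 3). Day 21 was thus 53.4% of the fibroblast level and 46.6% of that of day 2. The sums without the libraries that stood apart were 167 CPM at day 2, 125 CPM at day 3 and 79.5 CPM at day 14. The other 288 regions of the first block summed to 929 ± 33.7 CPM in fibroblasts, 832 ± 33.2 at day 2 and 863 ± 38.3 at day 21.

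The highest region of the run called lower from day 2 to day 21 was chr13:22008739-22012376. It had 25.6, 24.3 and 22.3 CPM in fibroblasts, 37.8, 33.1 and 25.5 CPM at day 2 and 19.5, 19.8 and 18.3 CPM at day 3. It had 9.31, 12.0 and 12.3 CPM at day 7, 7.47, 9.12 and 9.74 CPM at day 14 and 6.13, 10.2 and 7.49 CPM at day 21. At day 2, replicates 1 and 2 lay above all fibroblast libraries and replicate 3 lay among them, and every library from day 3 on lay below every fibroblast library. The change from day 2 to day 21 was -2.03 (SE 0.29) and that from fibroblasts to day 21 was -1.62 (SE 0.29).

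The named falls from day 2 to day 21 lay in the same run. In chr13:22028677-22029496 the libraries had 6.66, 6.94 and 5.40 CPM in fibroblasts, 9.60, 10.2 and 8.15 CPM at day 2 and 1.45, 3.54 and 0.816 CPM at day 21 (-2.48, SE 0.34). All day 2 libraries were above, and all day 21 libraries below, those of fibroblasts. In chr13:21998660-22000170 they had 8.57, 12.3 and 12.6 CPM in fibroblasts, 13.1, 10.2 and 9.37 CPM at day 2 and 1.56, 2.62 and 1.82 CPM at day 21 (-2.46, SE 0.31). Here day 2 overlapped with fibroblasts. In chr13:22019560-22020094, a weak region, the means were 0.982 ± 0.787 CPM in fibroblasts, 2.01 ± 0.331 at day 2 and 0.356 ± 0.122 at day 21 (SD, n = 3).

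Within the run not every region was lower. The region chr13:22036426-22038283, with 19.9 CPM on average, had a change of 0.20 from day 2 to day 21 and of 0.10 from fibroblasts. The strongest region of the run, chr13:22031893-22033380 with 21.1 CPM, was lower at day 21 than in fibroblasts (-0.80, SE 0.29), with a change from day 2 of -0.53 (SE 0.29) that was not called. These 2 were picked after their values were seen.

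In the second block the falls stood at its left side and near its right side. The strongest, chr13:23589239-23593213, had 21.2, 21.5 and 18.7 CPM in fibroblasts, 28.2, 27.4 and 24.2 CPM at day 2, 19.0, 14.2 and 14.9 CPM at day 3 and 3.79, 10.3 and 5.23 CPM at day 21. Day 2 lay above fibroblasts and day 21 below, with no overlap, and the change from day 2 to day 21 was -2.08 (SE 0.30). Its neighbour chr13:23596842-23600011 went from 11.4 ± 1.52 CPM at day 2 to 5.16 ± 1.82 CPM at day 21 (SD, n = 3). The narrow region chr13:23841581-23841806 had 3.01, 3.93 and 5.04 CPM in fibroblasts, 2.56, 1.69 and 1.63 CPM at day 2 and 0.557, 0.923 and 0.240 CPM at day 21. It was thus already below the fibroblast libraries at day 2, as was the first-block region chr13:21939558-21940323, with 2.55, 5.09 and 2.16 CPM in fibroblasts, 0.960, 1.62 and 2.04 CPM at day 2 and 0.557, 0.462 and 0.288 CPM at day 21.

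Against fibroblasts, the 3 largest falls at day 21 were those last 2 regions, with -2.96 (SE 0.51) at 23841581 and -2.98 (SE 0.50) at 21939558, and chr13:22016085-22017394 with -2.70 (SE 0.37). The latter had 9.49, 10.9 and 6.49 CPM in fibroblasts and 0.557, 2.92 and 1.15 CPM at day 21. To the right of the run, chr13:22085443-22089452 declined more evenly, from 25.7 ± 3.02 CPM in fibroblasts through 21.1 ± 1.73 at day 2 and 15.6 ± 0.726 at day 7 to 10.7 ± 2.67 at day 21 (SD, n = 3; log2 fold change -1.26, SE 0.28). Its day 2 libraries already lay below those of fibroblasts.

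The contrast of days 14 and 21 with days 2 and 3, which uses 12 libraries, gave 21 calls, 1 higher and 20 lower, or 14.4%, beside a background of 6.17% (2.5% higher and 3.66% lower). Early and late libraries did not overlap in 10.3% of the 146, with a background of 3.04%. All 15 regions that were lower from day 2 to day 21 were among the 20, and 11 of the 20 lay in the run; both comparisons share the libraries of days 2 and 21. The 1 higher region was chr13:21866516-21866936, with 0, 0.847 and 1.43 CPM at day 2, 3.37, 1.85 and 2.61 CPM at day 14 and 3.01, 2.00 and 0.720 CPM at day 21 (1.40, SE 0.35). It was also the first of the named rises from day 2 to day 21 (1.04, SE 0.52). The other named rises, at 21865119 (0.99, SE 0.62) and 23800144 (0.93, SE 0.45), were not called from day 2 to day 21 either. Without the 3 libraries that stood apart the calls were 11 higher and 19 lower, with a background of 7.01%. DESeq2 gave 7 higher and 19 lower, beside 2721 higher and 4319 lower over all 144810 tested regions.

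Over the 6 group means, the summed level of both blocks was set beside that of 7140 windows of 100000 bases with at least 10 tested regions. The 3 windows with the closest course began at position 31500001 of chromosome 15 (Pearson r 0.981), 3900001 of chromosome 16 (r 0.978) and 97800001 of chromosome 15 (r 0.966). With 6 points that share the scaling of their libraries and a course that moves little, these values only describe likeness.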

How the data were processed

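The deposited table holds raw ATAC-seq counts per region, in 18 libraries of 6 groups; the submitters' processing notes name Bowtie2, Picard, MACS2, edgeR and the mm9 build, without settings. The table as used here covers chromosomes 1, 10 to 16 and part of 17; its last, incomplete line was left out, and 18 of 36 labelled samples were not analysed here. The members and lists were chosen with earlier results of these data known. Regions passed edgeR's filterByExpr (minimum count 10, minimum total 15), and 144810 were tested with edgeR 4.0.16 in R 4.3.3 (TMM scaling, robust quasi-likelihood fit of all 6 groups, 12 residual degrees of freedom, common biological coefficient of variation 23.8%), with Benjamini-Hochberg adjustment over all of them. CPM uses TMM-scaled library sizes, and the fit was tested on simulated data. Standard errors were derived from the quasi-likelihood F statistic. Regions named by rule were the 6 with the highest mean CPM in each block, the 3 largest rises and 3 largest falls at day 2 and day 21 against fibroblasts and from day 2 to day 21 (average log2 CPM of at least 0), and the most and least variable of the 12 highest. All other named regions were picked after their values were seen. The closest replicate pair, fibroblasts 1 and 2, had a chi-square of 1.34 per degree of freedom, above sampling noise. Fibroblast replicate 3 had 10.4 against replicate 1 and 8.2 against replicate 2. The widest pair, replicates 2 and 3 of day 2, had 19.2. The labels name 2 sequencing cores without saying which library each handled, so no batch was modelled. Whether positions count from 0 or 1 is not given in the sources used here. Alternatives were other scalings, filters, a stricter threshold, DESeq2 1.42.0, fits of only the groups compared, a replicate block and leaving out libraries.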

Additional observations from a re-analysis of the deposited data

Results flagged for a closer look

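For 15 histone-block regions the change against fibroblasts differed between day 2 and day 21 by the test of day 21 against day 2 (edgeR's quasi-likelihood test, adjusted p under 0.05 over all tested regions), each time towards a lower level at day 21. As log2 fold changes of day 21 over day 2, the 11 of the run in the first block were -1.42 at 21988046, -2.46 at 21998660, -1.37 at 22002656, -1.73 at 22005547, -2.03 at 22008739 and -2.14 at 22016085. Further along the run they were -2.46 at 22019560, -2.13 at 22022538, -1.89 at 22025560, -2.48 at 22028677 and -2.16 at 22063436. Outside the run the first block had -1.97 at 21939558. The second block had -2.08 at 23589239, -1.19 at 23596842 and -1.94 at 23841581. The libraries of day 21 and day 2 differ in time in culture after infection and share the factors, the inhibitors and the sort for GFP. The blocks were chosen with the levels of these libraries known, so these values are a description.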

How the results depend on the processing

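The total numbers of histone-block regions called, higher and lower together, stayed within 1.5 times their value, and the medians and block ratios within the spread between libraries, with RLE size factors, DESeq2, sums of tested regions only and the replicate block, although the split into higher and lower moved with DESeq2 at day 3 (10 and 11), at day 21 (5 and 19) and for late against early days (7 and 19). With adjusted p under 0.01 in place of 0.05 the calls were 6 at day 2, 9 at day 3, 14 at day 7 and 18 at day 21. The background was then 12.2, 13.9, 17.4 and 14.8% of all tested regions. With library totals alone the calls were 30 at day 2 (background 25%), the medians 0.67 at day 2 (0.668) and 0.67 at day 21 (0.666), and the ratios of day 21 to fibroblasts 0.27 in the first block and 0.69 in the second, as the median of all tested regions itself moved to 0.63 and 0.66. With a minimum count of 30, which left 99 of the 146 regions, 28 were called at day 3, where 40.5% of all regions kept by that filter were called. The medians were -0.20 at day 2 and -0.27 at day 21, beside -0.06 and 0.01 over all regions kept. Without a filter, with 584 regions, calls were 4 at day 2, 9 at day 3, 10 at day 7, 10 at day 14, 9 at day 21, 2 from day 2 to day 21 and 10 for late against early days, and the medians 0.36 at day 2, 0.44 at day 21 and 0.13 between them. In the same order of comparisons, the calls over all regions without a filter were 0.834, 1.12, 1.56, 0.938, 1.17, 0.00381 and 0.0354%. A fit of fibroblasts and day 7 only gave 48 calls at day 7, 24 higher and 24 lower, with 32.1% of all tested regions called. Without the 3 libraries that stood apart, a choice made after the data were seen, calls were 43 at day 7 (background 33.2%) and 23 from day 2 to day 21 (background 2.83%). The cause of these moves was not tested beyond the scaling and the number of regions tested. Leaving out single libraries gave 8 to 13 calls at day 2, 9 to 17 at day 3, 15 to 25 at day 7, 24 to 31 at day 14, 19 to 25 at day 21, 9 to 13 from day 2 to day 21 and 17 to 22 for late against early days. The medians then ran from 0.0667 to 0.19 at day 2, 0.01 to 0.11 at day 21 and -0.12 to 0.01 between them, and the block ratios kept their sign (first block -0.22 to -0.14 for day 21 over fibroblasts and -0.09 to -0.02 for late over early days, second block 0.21 to 0.30 and 0.08 to 0.21). Replicate numbers were treated as shared numbers only. Deviations of same-numbered libraries correlated between -0.157 and 0.321 over all 15 pairs of groups, and in 0 of the 15 were all 3 correlations over 0.1. The highest values (0.321, 0.214 and 0.0985) were between days 2 and 3, and replicate 1 of both days stood apart. Whether same-numbered libraries of days 2 and 3 share an origin was not tested, and the main fit treats them as independent. Within the 6 comparisons of a pair of groups the correlations ran from -0.0495 to 0.0628, and in 0 of these 6 did all 6 libraries correlate best with their own number. With the replicate block the calls were 15, 18, 27, 31 and 26 at days 2, 3, 7, 14 and 21, 14 from day 2 to day 21 and 21 for late against early days, and the medians 0.09 at day 2, 0.10 at day 21 and -0.03 between them. Depth limits the weak regions most, since 439 of 585 were not tested.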
